A study of Saccharomyces cerevisiae with 4 samples.

Results

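Meiosis and sporulation genes were examined in *Saccharomyces cerevisiae* that was growing and not sporulating. The genes are 32 identifiers listed by name, namely 3 regulators of entry into meiosis, 17 early genes of recombination and chromosome structure, 2 regulators of the middle phase and 10 middle or late sporulation genes. All 32 were found among the 6679 identifiers of the deposited table. The rule that lists them names genes by known function and uses no measured value. The cells were the SK1 strain, a laboratory strain that sporulates efficiently, with a wild-type genotype in the labels. All cultures grew in rich YPD medium at 30 degrees and were harvested in exponential phase at an OD600 of 0.6. The 2 vehicle libraries came from cells given ethanol, volume matched to 20 nM and to 40 nM of inducer. The 2 inducer libraries came from cells exposed to bEST, named so in the labels, at 20 nM or at 40 nM. The series describes the contrast as growth with or without high levels of spliced HAC1 mRNA, the active form of the message of the factor that turns on unfolded protein response genes. The labels give neither the construct that drives HAC1 nor the ploidy or mating type. Nothing says that the libraries of a group were separate cultures, and the 2 inducer libraries differ in dose, so p-values rest on a spread that mixes dose with any difference between samples, which may be technical. Below, 4 values in a row are the vehicle libraries at 20 and 40 nM and then the inducer libraries at 20 and 40 nM.

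As background, entry into meiosis in yeast is set by IME1, a transcription factor that is kept low in rich medium. Ime1 acts with the DNA-binding protein Ume6, which otherwise represses early meiotic genes through a promoter element called URS1, and the kinase Ime2 acts downstream. Later, Ndt80 turns on middle sporulation genes through the middle sporulation element, which the repressor Sum1 also binds during growth. Spliced HAC1 has been described elsewhere as a repressor of early meiotic genes in nitrogen-rich medium.

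Promoters of the genes on which the results turn are shown as R64 reference sequence, which is the S288C strain and not SK1. Each window runs from 250 bases before the start codon to 50 bases after it, 5′ to 3′ on the gene's strand. HOP1 lies on the plus strand of chromosome IX, GIP1 on the minus strand of chromosome II and SPS4 on the minus strand of chromosome XV. Coordinates are left out because the build behind the deposited values is not given. HOP1 and GIP1 are shown because they rose, and SPS4 because it had the largest positive log2 fold change among the tested genes of the 32 that were not called. Capitals mark the URS1 core GGCGGC and the pheromone response element core TGAAACA in HOP1, and the middle sporulation element core CACAAA in SPS4. The GIP1 window held none of the 4 motifs searched.
HOP1: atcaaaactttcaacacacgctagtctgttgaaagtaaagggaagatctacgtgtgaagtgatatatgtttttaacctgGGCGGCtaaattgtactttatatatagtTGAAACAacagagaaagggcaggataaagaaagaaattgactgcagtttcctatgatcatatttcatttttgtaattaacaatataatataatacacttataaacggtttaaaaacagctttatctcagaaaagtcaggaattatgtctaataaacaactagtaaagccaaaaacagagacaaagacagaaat
GIP1: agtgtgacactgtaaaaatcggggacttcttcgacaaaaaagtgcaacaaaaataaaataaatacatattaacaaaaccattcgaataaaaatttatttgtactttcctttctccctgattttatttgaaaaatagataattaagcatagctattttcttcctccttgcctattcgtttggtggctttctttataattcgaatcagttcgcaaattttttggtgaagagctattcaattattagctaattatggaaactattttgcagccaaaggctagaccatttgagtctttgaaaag
SPS4: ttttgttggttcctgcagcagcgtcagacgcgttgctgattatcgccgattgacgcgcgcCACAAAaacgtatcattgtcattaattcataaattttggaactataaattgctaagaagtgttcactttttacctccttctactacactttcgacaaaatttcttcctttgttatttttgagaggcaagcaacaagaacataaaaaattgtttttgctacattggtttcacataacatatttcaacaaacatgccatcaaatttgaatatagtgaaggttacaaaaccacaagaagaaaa

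The 32 genes were low in every library. Values are RPKM, reads scaled by gene length and by library depth. Over the 4 libraries the median of their mean levels was 1.71 RPKM, against 29.6 RPKM for all identifiers, and all 32 lay below that whole-table median. Means ran from 0.07 RPKM for AMA1 to 13.02 RPKM for GIP1. The summed level of the 32 genes was 100.0, 83, 113.8 and 146.4 RPKM. Without HOP1 and GIP1 it was 96.9, 81.7, 80.5 and 105.8 RPKM, so the higher sums with inducer rested mainly on those 2 genes. Summed over 9 genes of growing cells, such as actin, ribosomal protein and cyclin genes, the level was 11930, 12540, 15760 and 12150 RPKM. Of these 9 genes 0 rose and 0 fell by limma on log2(RPKM + 1), and 1, the mitotic cyclin gene CLB1, fell by limma-voom on recovered reads (adjusted p = 0.0368). CLB1 was at 23.51, 26.95, 8.73 and 11.34 RPKM, lower in both inducer libraries (log2 fold change -1.26, SE 0.27, limma adjusted p = 0.0656).

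Counting error is large at these levels. Reads recovered from the deposited values gave depths of 2132000, 2597000, 1182000 and 4158000 reads, so the 20 nM inducer library was the shallowest and the 40 nM inducer library the deepest. A gene was called detected in a library when it had more than 3 reads. By that rule 19, 18, 14 and 27 of the 32 genes were detected, while 90.2%, 90.2%, 88.3% and 92.2% of all genes with recovered reads were. The order of the 4 counts of detected members follows the order of depth only in part, since the 20 nM vehicle library had fewer reads than the 40 nM one and 1 more gene detected. In all 4 libraries 11 genes were detected, and in no library 4, which were MEK1, MND1, HOP2 and AMA1. Intervals below are 95% Poisson intervals, and like the limit of 3 reads for a count of 0 they cover counting error only, since reads carry no molecular identifiers.

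**Figure D1:**
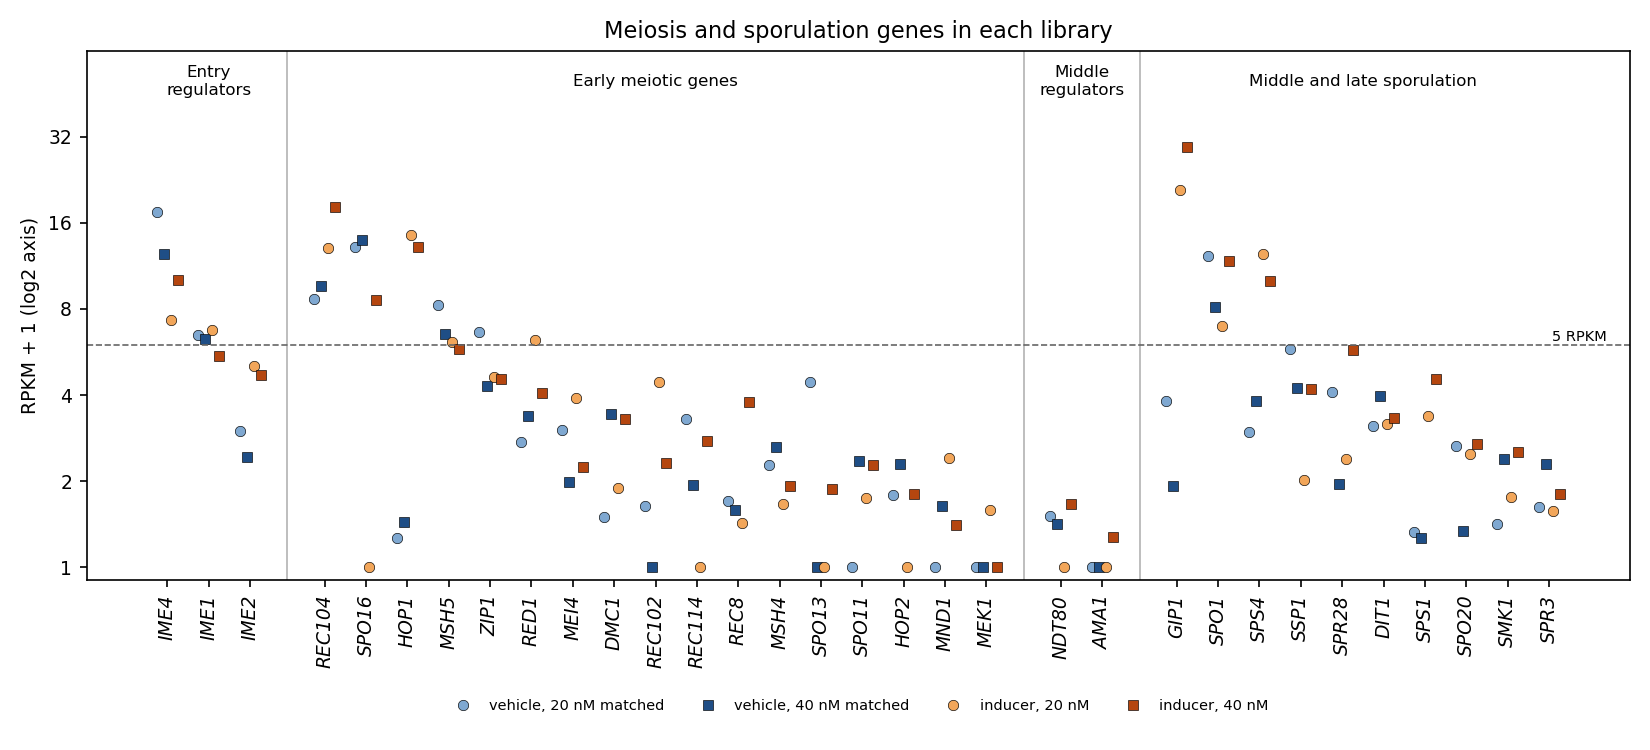
RPKM + 1 of each of the 32 genes in each library on a log2 axis, ordered by mean level within each role, with a dashed line at 5 RPKM. HOP1 and GIP1 show both inducer libraries far above both vehicle libraries, while most other genes lie near the bottom of the axis with the groups mixed.

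**Figure D2:**
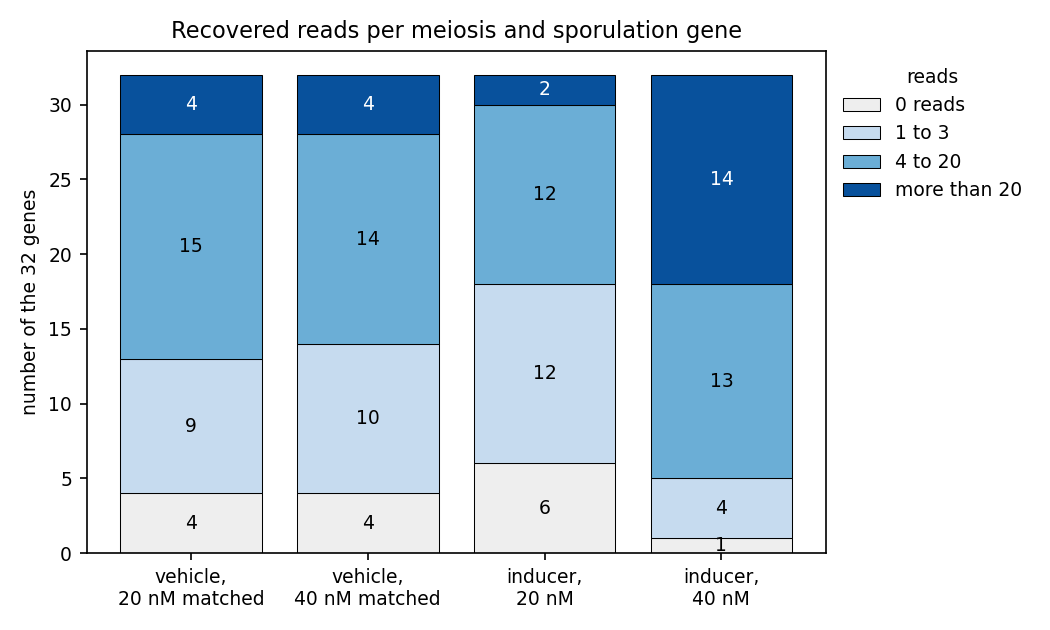
Number of the 32 genes in each library by recovered reads, in classes of 0, 1 to 3, 4 to 20 and more than 20 reads. The 40 nM inducer library, the deepest, has 14 genes with more than 20 reads, and the 20 nM inducer library, the shallowest, has 2.

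The driven gene stood out first. HAC1 was at 487, 528, 5922 and 3712 RPKM (log2 fold change 3.21, SE 0.26, limma adjusted p = 0.00211). KAR2, the chaperone gene that Hac1 activates, was at 354, 395, 4194 and 3612 RPKM (log2 fold change 3.38, SE 0.20, limma adjusted p = 0.00177). The HAC1 value counts both spliced and unspliced forms.

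Against that change, 2 of the 32 genes rose with inducer and 0 fell. They were HOP1 and GIP1. The comparison used limma on log2(RPKM + 1) across the 5317 genes whose mean reached 5 RPKM, with a Benjamini-Hochberg adjusted p under 0.05 as the threshold. On this scale a fold change understates the change of low genes. Of all tested genes, 2.48% rose and 0.733% fell. Only 9 of the 32 genes passed the level filter. Of these HOP1, GIP1 and SPS4 reached 5 RPKM in the mean of their inducer libraries but not of their vehicle libraries. SPO16 and MSH5 reached it in the mean of their vehicle libraries but not of their inducer libraries. The share called among the 9 is therefore no measure of the group. At an unadjusted p under 0.05 there were 4 of the 9, where 16.3% of all tested genes were. With limma-voom on recovered reads in genes with at least 10 reads in total, an alternative chosen after seeing the data, 25 members were tested and again 2 rose and 0 fell. In that fit 4.35% of all genes rose and 1.41% fell, and 4 of the 25 members had an unadjusted p under 0.05, where 16.8% of all genes did, so that count is near the background.

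**Figure D3:**
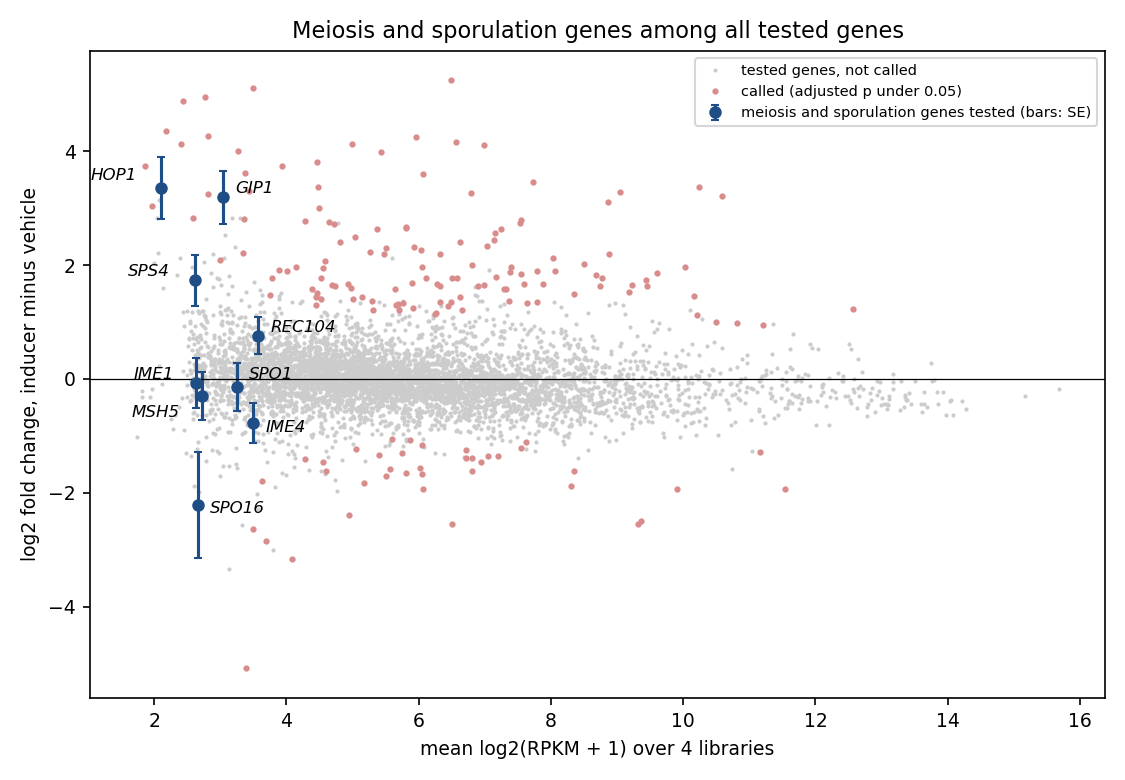
Log2 fold change of inducer against vehicle over the mean log2(RPKM + 1) for all 5317 tested genes, with the 9 tested meiosis and sporulation genes in blue and bars of 1 SE. HOP1 at 3.35 and GIP1 at 3.19 lie among the called rises, SPS4 at 1.74 and SPO16 at -2.21 are not called, and the other 5 lie closer to 0.

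HOP1 (YIL072W) encodes a protein of the meiotic chromosome axis that directs recombination toward the homologous chromosome. It was at 0.27, 0.44, 13.46 and 12.17 RPKM, from 1, 2, 28 and 89 reads. Both vehicle libraries were below the limit that a count of 0 allows, and both inducer libraries were far above it. The 20 nM inducer value had an interval of 8.95 to 19.47 RPKM, and that of the 40 nM inducer value was 9.78 to 14.98 RPKM. The log2 fold change was 3.35 (SE 0.54, limma adjusted p = 0.0226). The pooled read rate was 34.5 times higher with inducer, with a counting interval of 11.5 to 170. The call was lost without the 20 nM inducer library, where the log2 fold change was 3.29 (limma adjusted p = 0.0759), and at a pseudocount of 0.1 it was 4.86 (limma adjusted p = 0.0714). Over all alternatives run the adjusted p of HOP1 lay between 2.77e-05 and 0.0804, and the fold change kept its direction. With limma-voom the log2 fold change was 4.74 (SE 0.78, adjusted p = 0.00327).

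The genes beside HOP1 did not rise with it. SPO22, the early meiotic gene that lies 647 bases upstream on the other strand, was at 1.96, 1.74, 1.47 and 1.76 RPKM. PCI8, 240 bases downstream and facing HOP1, was at 10.66, 13.58, 5.30 and 9.61 RPKM. Both are genes outside the 32 and are given here as neighbours in the R64 annotation. SPO22 also stands in the list of other early meiotic genes given further on.

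GIP1 (YBR045C) encodes a subunit that directs the Glc7 protein phosphatase to forming spores, where it acts in septin organisation and spore wall formation. It was at 2.82, 0.93, 19.83 and 28.49 RPKM, so both inducer libraries stood above both vehicle libraries. The log2 fold change was 3.19 (SE 0.47, limma adjusted p = 0.0158). Set side by side by dose label alone, it was 2.45 at 20 nM and 3.94 at 40 nM, where the vehicle value was 0.93 RPKM. The matched doses do not establish a pairing, and an effect of dose was not tested. GIP1 had the highest mean level of the 32 genes. At the R64 length its values missed whole reads by up to 0.472 of a read, against at most 0.072 for any other member, so its reads of about 11, 4, 44 and 220 are approximate. Without the 20 nM inducer library the log2 fold change was 3.44 and the call was lost (limma adjusted p = 0.0594). Over all alternatives run its adjusted p lay between 1.16e-09 and 0.188. ZTA1, 414 bases upstream on the same strand, was at 9.92, 11.81, 5.37 and 9.15 RPKM, lower in both inducer libraries than in either vehicle library.

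The 3 regulators of entry differed in direction, and none was called. IME1 (YJR094C) was at 5.50, 5.27, 5.78 and 4.46 RPKM, from 12, 14, 7 and 19 reads. The groups overlapped, with a log2 fold change of -0.07 (SE 0.43, limma adjusted p = 0.963) that turned to 0.09 without the 40 nM inducer library. The pooled read rate of IME1 with inducer was 0.885 of that with vehicle, and its counting interval of 0.494 to 1.59 takes in changes of either sign. IME2 (YJL106W), the meiosis-specific kinase, was at 2.0, 1.43, 4.05 and 3.71 RPKM, from 8, 7, 9 and 29 reads. Both inducer libraries of IME2 were above both vehicle libraries, and the ratio of read rates was 2.24 with a counting interval of 1.21 to 4.39. IME2 lay below the level filter, and with a minimum of 1 RPKM its log2 fold change was 0.85 (SE 0.54, limma adjusted p = 0.513).

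IME4 (YGL192W), the mRNA methyltransferase needed for meiosis, was at 16.41, 11.48, 6.30 and 9.10 RPKM. Both inducer libraries were below both vehicle libraries, with a log2 fold change of -0.78 (SE 0.35, limma adjusted p = 0.346) that did not pass. An annotated noncoding RNA on the opposite strand overlaps all 1803 bases of IME4. The libraries were directional, but whether counting used strand is not given, so reads of IME4 and of its antisense partner cannot be told apart. YGL193C, which begins 18 bases upstream of IME4 on the other strand, was at 1.88, 6.18, 13.58 and 5.79 RPKM (log2 fold change 1.13, SE 0.61, limma adjusted p = 0.43).

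Of the 17 early genes 4 passed the level filter, and 1 of them rose, HOP1, where 2.48% of all tested genes rose. HOP1 passed the filter through its inducer libraries alone, and SPO16 and MSH5 through the mean of their vehicle libraries alone. The mean levels of the 17 early genes had a median of 1.35 RPKM. REC104, one of the proteins that help Spo11 cut DNA, had the highest mean of them. It was at 7.67, 8.65, 12.10 and 17.20 RPKM, from 8, 11, 7 and 35 reads, with both inducer libraries higher (log2 fold change 0.76, SE 0.32, limma adjusted p = 0.314). SPO16, which acts in chromosome synapsis, went the other way. It was at 12.22, 12.90, 0.00 and 7.61 RPKM, from 14, 18, 0 and 17 reads. The 20 nM inducer value of 0 allows up to 4.73 RPKM, and the log2 fold change of -2.21 (SE 0.93, limma adjusted p = 0.306) rests on that library. It was -0.66 without it and -3.76 without the 40 nM inducer library, where SPO16 was called (limma adjusted p = 0.0233, with a range of 0.00107 to 0.611 over its alternatives). MSH5, a MutS homologue of crossover formation, was at 7.26, 5.53, 5.11 and 4.81 RPKM (log2 fold change -0.30, SE 0.42, limma adjusted p = 0.78).

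Several other early genes had few reads. SPO11, which makes the meiotic double-strand breaks, was at 0.00, 1.35, 0.74 and 1.27 RPKM, from 0, 4, 1 and 6 reads. DMC1, the meiotic recombinase, was at 0.50, 2.44, 0.89 and 2.29 RPKM, from 1, 6, 1 and 9 reads. Neither showed a separation of the groups. MEK1, the axis-associated kinase that works with Hop1 and Red1, had 0, 0, 1 and 0 reads. RED1, the axis partner of Hop1, was at 1.74, 2.38, 5.23 and 3.07 RPKM, from 9, 15, 15 and 31 reads. Both inducer libraries of RED1 were above both vehicle libraries, but its log2 fold change of 0.73 (SE 0.54) did not pass at a minimum of 1 RPKM (limma adjusted p = 0.576). The ratio of read rates of RED1 was 1.7 with a counting interval of 1.01 to 2.91. Of the axis genes HOP1, RED1 and MEK1, HOP1 alone passed the level filter of the main comparison, through its inducer libraries. RED1 and MEK1 therefore could not be called there. HOP1 was called, where 2.48% of all tested genes rose. Whether HOP1 differed from RED1 was not tested. REC8, the meiotic cohesin subunit, was at 0.71, 0.58, 0.43 and 2.79 RPKM, from 3, 3, 1 and 23 reads. It was highest in the 40 nM inducer library, with an interval of 1.77 to 4.19 RPKM. That interval overlaps the one of 0.01 to 2.38 RPKM at 20 nM. The ratio of read rates was 3.54 with a counting interval of 1.41 to 10.6, and REC8 was not called at a minimum of 1 RPKM (limma adjusted p = 0.84).

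HOP2, whose product works with Mnd1 to help Dmc1, had 1, 2, 0 and 2 reads, and MND1 had 0, 1, 1 and 1. HOP2 lies 168 bases from AGA2, a mating gene on the other strand, which was at 4.6, 7.54, 95.28 and 51.83 RPKM. HOP2 thus stayed within 3 reads in every library beside a neighbour that rose (log2 fold change 3.37, SE 0.37, limma adjusted p = 0.00497).

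The regulators of the middle phase were at the limit of detection. NDT80 (YHR124W), the transcription factor of middle sporulation genes, had 2, 2, 0 and 5 reads, which is 0.51, 0.42, 0.00 and 0.66 RPKM. AMA1 (YGR225W), the meiosis-specific activator of the anaphase-promoting complex, had 0, 0, 0 and 2 reads. The pooled read rate of NDT80 with inducer was 1.11 times that with vehicle, with a counting interval of 0.238 to 5.58. A change of either sign within that interval was not detectable at this depth. For AMA1, with 0 vehicle reads, no ratio could be formed. The count of 0 in the 20 nM inducer library allows up to 1.39 RPKM for NDT80.

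Of the 10 middle and late sporulation genes 3 were tested, GIP1, SPS4 and SPO1, and 1 rose, GIP1, where 2.48% of all tested genes rose. GIP1 and SPS4 passed the level filter through their inducer libraries alone. SPS4, a sporulation-specific gene, was at 1.96, 2.81, 11.48 and 9.04 RPKM, from 4, 7, 13 and 36 reads. Both inducer libraries were above both vehicle libraries, and the ratio of read rates was 3.94 with a counting interval of 2.02 to 8.41. Its log2 fold change of 1.74 (SE 0.45) missed the threshold (limma adjusted p = 0.0986) and passed without a variance trend (limma adjusted p = 0.0304, with a range of 0.0189 to 0.475 over its alternatives). SPS1, a kinase of late sporulation, was at 0.33, 0.27, 2.39 and 3.57 RPKM, from 1, 1, 4 and 21 reads. Its read rate was 11.1 times higher with inducer, with a counting interval of 2.76 to 96.4, but it was not called at a minimum of 1 RPKM (limma adjusted p = 0.359) or with limma-voom (adjusted p = 0.0974). 

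SPO1, a phospholipase homologue of spore formation, was at 11.23, 7.12, 5.98 and 10.73 RPKM (log2 fold change -0.14, SE 0.42, limma adjusted p = 0.916), with no separation. DIT1, which makes a precursor of the dityrosine layer of the spore wall, was at 2.12, 2.98, 2.18 and 2.32 RPKM. SMK1, a kinase of spore wall assembly, had 1, 4, 1 and 7 reads. The sporulation septin gene SPR3 had 2, 5, 1 and 5 reads. SPS1, RED1, REC8, SPO11, DMC1, MSH5, MEK1, HOP2, MND1, DIT1, SMK1 and SPR3 lie outside the rule for genes given library by library and were picked after their values were seen. The middle and late genes other than GIP1 were thus low in all 4 libraries. Of SPS1, SPS4, SMK1 and DIT1 only SPS4 was tested in the main comparison, where it was not called.

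Separation of the libraries gives a view that needs no level filter. In 8 of the 32 genes both inducer libraries were above both vehicle libraries, namely IME2, HOP1, RED1, REC102, REC104, SPS1, SPS4 and GIP1. In 5 they were below, namely IME4, MSH4, MSH5, SPO16 and SSP1, and 19 overlapped. Of all 6679 identifiers 20.6% were separated upward and 20.3% downward. The members' counts are near those shares. An exact permutation test of a single gene with 2 libraries against 2 cannot give a two-sided p below 0.333.

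Motif matches were counted on both strands in the promoter windows of the 32 genes, as a description with no test, and motifs did not overlap each other in the windows shown. The URS1 core GGCGGC was in 13 of the 32 windows, 11 of them of early genes, and in 5.13% of 6026 promoter windows of R64. The middle sporulation element core CACAAA was in 11 of 32, 7 of them of middle or late genes, and in 18.8% of all windows. The unfolded protein response element core CAGCGTG was in 1 of 32, where the match lay inside the coding sequence of IME1, and in 1.16% of all. The pheromone response element core TGAAACA was in 4 of 32, namely SPO11, HOP1, MEI4 and MSH4, and in 7.47% of all. Of these 4 genes HOP1 alone passed the level filter, through its inducer libraries, so it was the only one that could be called. It was called, where 2.48% of all tested genes rose.

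Of the 11 early genes with a URS1 core, HOP1, REC104 and SPO16 passed the level filter. HOP1 did so through its inducer libraries and SPO16 through the mean of its vehicle libraries, so the filter bore on which could be called. HOP1 alone was called in the main comparison, where 2.48% of all tested genes rose. Short R64 windows with 8 bases on both sides of the core, read on the strand of the core, show HOP1 beside REC104 and SPO16, which were tested and not called there, and beside MEI4, DMC1 and SPO13, which were not tested there. The core starts 171 bases upstream of the start codon in HOP1, 91 in REC104, 88 in SPO16 and 96 in MEI4. In DMC1 and SPO13 the core lies on the other strand, and its most upstream base is 138 and 95 bases from the start codon.
HOP1: ttaacctgGGCGGCtaaattgt
REC104: caatatttGGCGGCtattttcc
SPO16: gaaaagtgGGCGGCtaaaaccg
MEI4: tattgctgGGCGGCtaaatgtt
DMC1: tatccttgGGCGGCtattttcc
SPO13: tttttgtcGGCGGCtatttctc

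**Figure D4:**
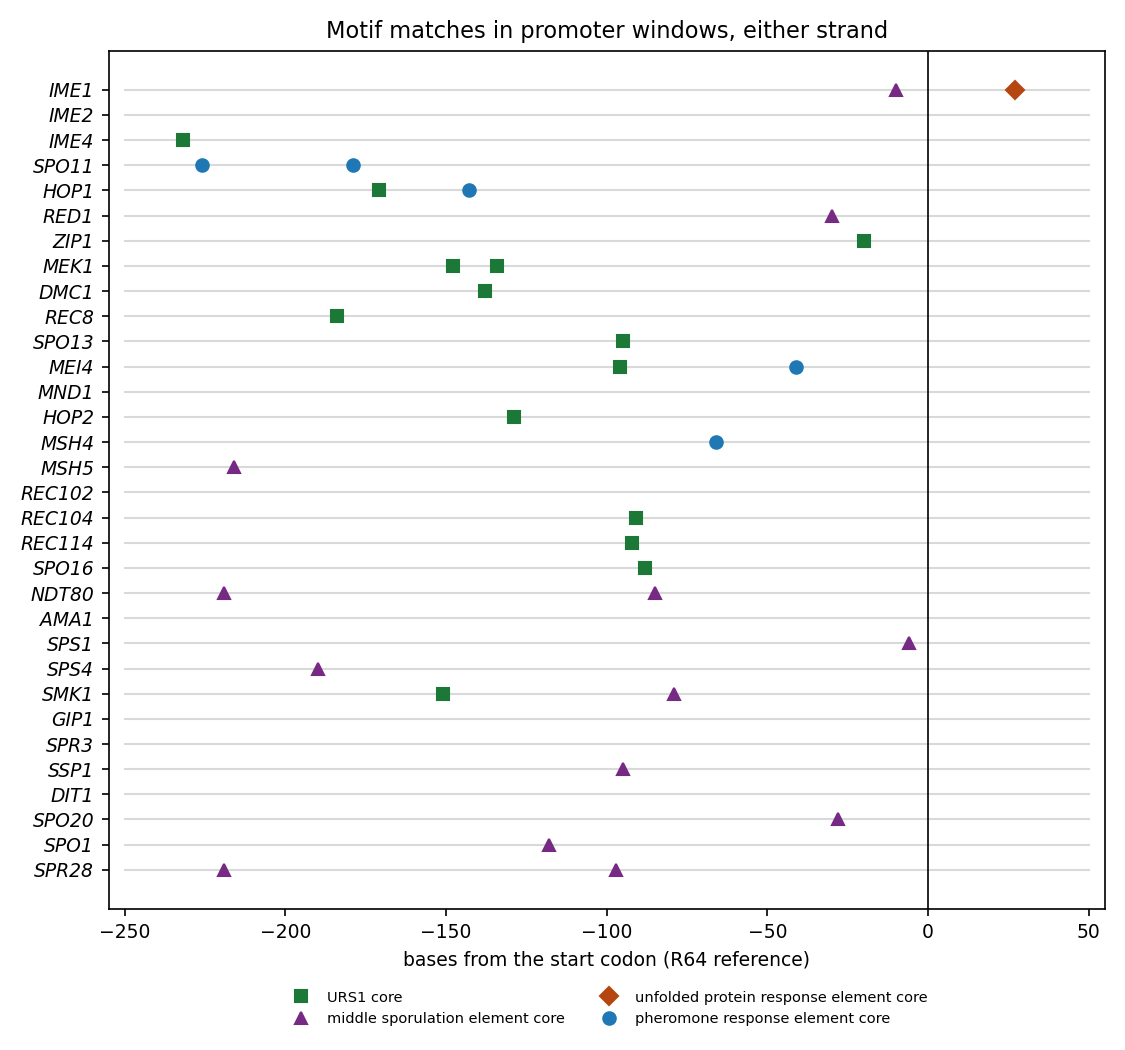
Positions of the 4 motif cores in the promoter windows of the 32 genes, in bases from the start codon, with each symbol at the match's most upstream base. URS1 cores fall mostly on early genes, HOP1 holds a URS1 core and a pheromone response element core, and GIP1 holds none.

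Other genes of the pathway that were tested did not pass either. Of 20 further regulators of meiotic entry, which include Ume6, its corepressor genes SIN3 and RPD3, and SUM1, 17 were tested and 0 rose or fell, with a median log2 fold change of 0.11 against -0.02 for all tested genes. The summed level of the 20 regulators was 595.9, 567.6, 668.5 and 620.0 RPKM, higher in both inducer libraries. UME6 was at 10.14, 10.83, 12.41 and 10.49 RPKM. The largest changes of that list were XBP1, a repressor gene (log2 fold change 0.79, SE 0.37, limma adjusted p = 0.356), and STB3 (0.66, SE 0.28). XBP1 was at 45.79, 53.5, 127 and 58.68 RPKM, and without it the summed levels of the regulators overlapped between the groups. RME1, the repressor of IME1 in haploid cells, was at 3.89, 0.91, 2.01 and 4.85 RPKM, below the level filter, and it also stands in the haploid list given further on.

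Of 16 other early meiotic genes 2 were tested and 0 passed. Their summed level was 26.17, 28.02, 34.96 and 33.05 RPKM, higher in both inducer libraries. REC107, which takes part in break formation, was at 7.95, 10.87, 14.32 and 14.12 RPKM (log2 fold change 0.56, SE 0.31, limma adjusted p = 0.432), and ZIP3 had a log2 fold change of 0.08 (SE 0.34). MER1, SAE3, CSM4 and GMC2 were listed at 0 in every library. Of 36 other middle and late sporulation genes 13 were tested and 0 passed, with a median of -0.21. Among the 13 tested the largest differences were falls in value, in RMD6 and ADY2. RMD6 was at 22.11, 22.99, 2.66 and 8.31 RPKM (log2 fold change -2.01, SE 0.47, limma adjusted p = 0.0744). ADY2, an acetate transporter gene, was at 23.68, 6.80, 1.07 and 10.32 RPKM, with the groups overlapping (-1.52, SE 0.87, limma adjusted p = 0.461). By limma-voom on recovered reads 0 of these 3 lists' members passed as well, among 19, 6 and 26 tested.

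Markers of mating cell types moved with the inducer beside HOP1 and GIP1. All 6 a-cell specific genes rose, as did 4 of 5 alpha-cell specific genes and 4 of 8 tested haploid specific genes, where 2.48% of all tested genes rose. The a-cell gene MFA1 was at the edge of the threshold (limma adjusted p = 0.0497, and 0.0508 at a minimum of 1 RPKM). Among the haploid specific genes not called, HO had a log2 fold change of 0.1 (SE 0.52, limma adjusted p = 0.952). Summed over the 6 a-cell genes the level was 786, 423, 2007 and 3145 RPKM. Over the 5 alpha-cell genes it was 47.69, 37.20, 837.1 and 481.4 RPKM, and over 9 haploid specific genes 57.74, 51.57, 265.8 and 291.4 RPKM. The a-factor gene MFA2 was at 16.45, 20.25, 222 and 240.0 RPKM (log2 fold change 3.59, SE 0.23, limma adjusted p = 0.00177). FAR1, which arrests the cell cycle in response to pheromone, was at 1.73, 3.32, 36.82 and 29.43 RPKM (log2 fold change 3.30, SE 0.37, limma adjusted p = 0.00518). None of these markers was at 0 in any library. In a bulk sample a change in some cells and a change in all cells cannot be told apart, and what part these markers' cells have in the HOP1 and GIP1 values was not tested.

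**Figure D5:**
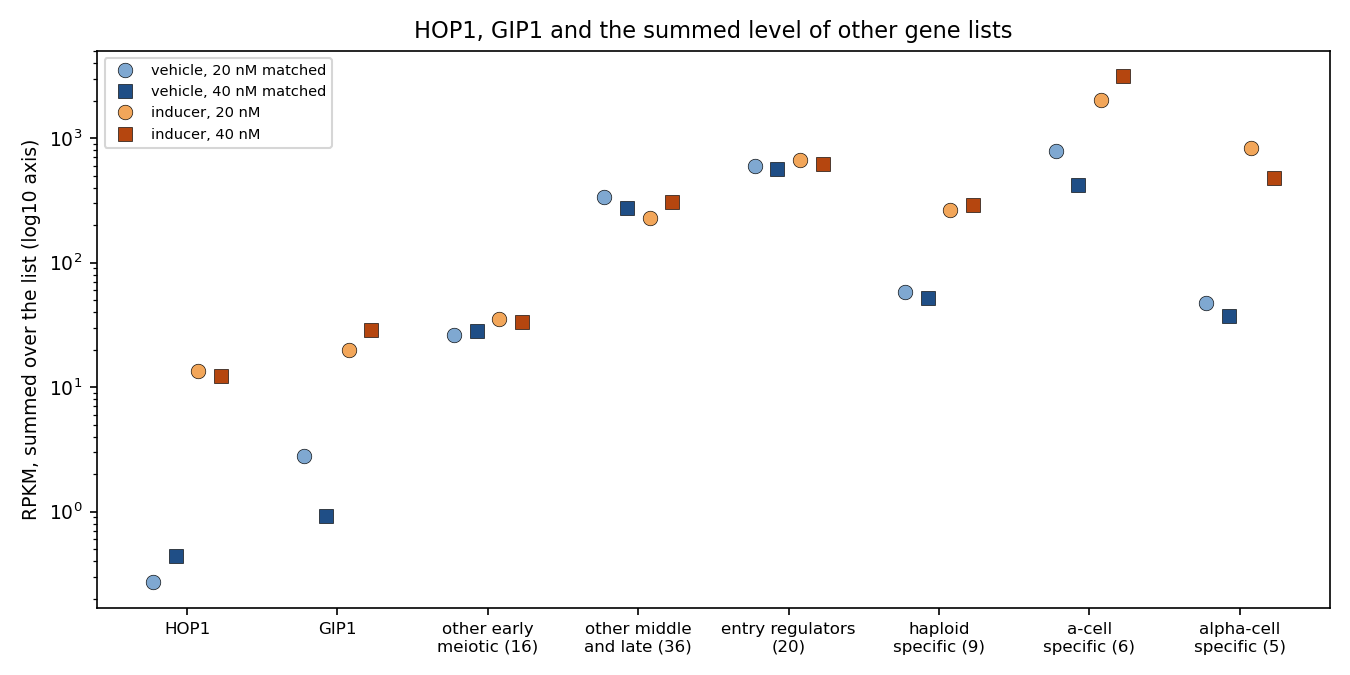
RPKM of HOP1 and of GIP1, and summed RPKM of 6 other lists with the number of genes in brackets, per library on a log10 axis. The haploid, a-cell and alpha-cell lists stand higher in both inducer libraries, as HOP1 and GIP1 do. By smaller steps the other early meiotic genes and the entry regulators do so too, the regulators only with XBP1 counted. The sums over the other middle and late sporulation genes overlap between the groups.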

How the data were processed

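Poly(A) RNA of 4 libraries was read as 50-base single ends after directional preparation, per the labels' protocols. The authors' deposited table holds 1 value per gene and library with no unit in its header, taken here as RPKM from its behaviour. STAR and SAMtools are named, per the submitters' processing notes. No source used here gives the counter, build, annotation or filters. Multiplied by the R64 coding length less 60 bases, values of up to 50 reads came within 0.05 of whole reads in 93.1% to 93.8% of cases, which gave depths and reads for 5982 of 6679 identifiers.

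Inducer was compared with vehicle with limma 3.58.1 (R 4.3.3) fitted to log2(RPKM + 1), using a variance trend, no covariate, a mean of at least 5 RPKM and Benjamini-Hochberg adjustment over all tested genes. Doses within a group count as spread. The test was checked on simulated data with the same spread for every gene and no counting error. That check does not cover genes at low levels. Promoter motifs were searched with Python 3.11.15. The genes, the lists and the rule for named genes were chosen with earlier results of these data known. That rule gives library values for genes called in any fit, for IME1, IME2, IME4, NDT80 and AMA1, for the 3 highest genes of each role and for up to 4 called genes or 2 others of each list. Alternatives were the pseudocount, the level filter, median centring, no variance trend, limma-voom, the matched dose as a replicate block and leaving out each library.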

Additional observations from a re-analysis of the deposited data

How the results depend on the processing

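Low levels with few reads are a limit, as are 2 libraries of unlike dose per group. Of the 32 genes 23 lay below 5 RPKM, and most had few reads. HOP1 and GIP1 kept their direction in every alternative run. Both calls failed with no level filter and when the 20 nM inducer library was left out, and HOP1 lost its call at a pseudocount of 0.1. Rises among the 32 genes numbered 2 in the main analysis, 1 at a pseudocount of 0.1, 0 with no level filter, and 0 to 2 with 1 library left out. Falls numbered 0, but 1 with the matched dose as a replicate block and 0 to 1 with 1 library left out, in each case SPO16. With no level filter limma called 0 genes of the whole table in either direction and 0 cell type genes where the main analysis called 14, although 896 genes had an unadjusted p under 0.05 and limma-voom called 315. The cause was not tested.

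Over the whole table the 132 rises and 39 falls became 229 and 76 with limma-voom, 238 and 77 with limma-voom at a minimum of 10 reads, and 243 and 123 with the replicate block. Falls numbered 66 with libraries centred on their medians and 25 without a variance trend. With 1 library left out rises ran from 113 to 333 and falls from 32 to 460, with the highest values without the 40 nM inducer library. The other meiosis and entry lists, at 0 and 0, held 3 falls with the replicate block, and 0 to 2 rises and 0 to 2 falls with 1 library left out. The matched doses do not establish a pairing, because no label says that they share a culture or day. Across genes the 20 minus 40 nM differences of the groups correlated at -0.205. A crossed pairing of doses as a block, chosen after seeing the data, gave 363 rises and 305 falls over the table, 1 fall among the 32 genes, and 1 rise and 3 falls in the other meiosis and entry lists. SPS4 was called with the block and without a variance trend.

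Small fold changes changed sign. IME1, at -0.068, ran from -0.224 to 0.088 with 1 library left out. SPO1 went from -0.139 to 0.058 and 0.059 with the limma-voom fits and ran from -0.514 to 0.235 with 1 library left out. With at least 1 read as the rule of detection, 28 of 32 genes were detected in the 40 nM vehicle library, 26 in the 20 nM inducer library, 22 in all libraries and 0 in none of them.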
